A study of Mus musculus with 2 samples.

Results

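The D cyclins, their kinases CDK4 and CDK6, the inhibitors of these kinases and their substrate Rb were followed as transcripts in CD4 T cells activated with or without a transgene for OX40 ligand (OX40L) on the antigen-presenting cells (APC). The set comprised Ccnd1, Ccnd2, Ccnd3, Cdk4, Cdk6, Cdkn1a, Cdkn1b, Cdkn2c, Cdkn2d and Rb1, chosen by name, with all probe sets that the platform annotation pairs with 1 of these symbols. All 10 genes had a value, in 25 probe sets, of 17097 genes on the array. Naive CD62LhighCD44lowFoxp3− CD4+ T cells came from 6-week-old C57/Bl6 mice with a Foxp3-eGFP reporter, and both groups shared this origin. They were activated in culture for 48 hours with soluble anti-CD3 antibody, and living CD4+ T cells were then sorted for RNA. The APC were CD3− splenocytes treated with mitomycin C at 50 ug/ml, taken from wild type B6 mice in the group called Wt APC and from OX40L-Tg mice in the group called OX40L-Tg APC. The promoter of the transgene and any pooling of mice are not given in the sources used here. Each group was measured on 1 Affymetrix HT_MG-430 PM array, so there are no replicates and no test was possible. An array of short probes was read as an intensity in arbitrary units, which the authors had normalized, and the number of arrays limits the precision.

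Entry into the cell cycle runs through this set of genes. Signals from the T cell receptor and growth factor receptors raise the D cyclins, which bind CDK4 or CDK6, and the complexes phosphorylate Rb, so that E2F factors are released and genes of DNA synthesis are transcribed. The INK4 proteins, such as p18 from Cdkn2c and p19 from Cdkn2d, bind CDK4 and CDK6 alone and keep cyclins off. The CIP/KIP proteins, p21 from Cdkn1a and p27 from Cdkn1b, bind cyclin and kinase together and mainly block CDK2. In T cells p27 is high at rest and is degraded on activation, which a transcript measurement does not see, whereas Ccnd2 and Cdk6 are induced by activation.

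The DNA in front of 3 of these genes is printed here because these genes mark the contrast in the set. Cdkn1a had the largest difference between the arrays, and the partner kinase genes Cdk6 and Cdk4 read apart and nearly level. The sequences are the 250 bases before an annotated start, 5′ to 3′, from RefSeq on mouse build GRCm38.p6, and all lie on the plus strand. The windows are chr17:29090729-29090978 before the upstream start of Cdkn1a, chr17:29093519-29093768 before its downstream start, chr10:127063285-127063534 before Cdk4 and chr5:3343643-3343892 before Cdk6. Capitals mark matches to the core of a p53 element (CATG, any 6 bases, then CATG again) or to the E-box CACGTG, the site of Myc and related factors.
Cdkn1a upstream start: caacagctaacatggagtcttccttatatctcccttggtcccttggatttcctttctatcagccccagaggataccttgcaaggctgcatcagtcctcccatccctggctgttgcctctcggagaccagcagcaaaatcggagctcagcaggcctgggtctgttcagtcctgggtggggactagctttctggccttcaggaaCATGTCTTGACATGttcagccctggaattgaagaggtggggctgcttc
Cdkn1a downstream start: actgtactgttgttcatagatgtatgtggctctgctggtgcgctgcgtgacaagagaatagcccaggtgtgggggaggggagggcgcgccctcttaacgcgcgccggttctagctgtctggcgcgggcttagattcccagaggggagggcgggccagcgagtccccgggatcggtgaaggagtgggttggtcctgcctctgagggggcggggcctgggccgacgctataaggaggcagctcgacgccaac
Cdk4: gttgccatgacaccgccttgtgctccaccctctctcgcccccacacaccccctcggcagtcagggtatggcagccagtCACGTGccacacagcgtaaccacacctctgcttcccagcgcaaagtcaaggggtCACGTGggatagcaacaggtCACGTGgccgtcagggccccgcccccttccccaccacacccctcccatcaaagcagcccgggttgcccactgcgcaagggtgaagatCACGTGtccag
Cdk6: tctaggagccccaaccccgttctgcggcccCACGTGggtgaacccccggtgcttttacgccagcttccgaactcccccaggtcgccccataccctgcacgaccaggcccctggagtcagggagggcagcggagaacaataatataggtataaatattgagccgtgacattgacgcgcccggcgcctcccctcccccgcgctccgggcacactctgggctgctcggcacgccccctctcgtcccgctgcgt

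The p53 core occurred once, before the upstream Cdkn1a start, with its first base at 48 bases from that start and 2838 bases from the downstream start. It was found in 161 of 32851 windows of the same length before all annotated starts, or 0.49%. The Cdk4 window held 4 E-boxes, and 7 of the 32851 windows held at least 4. The Cdk6 window held 1 E-box, and 6.02% of all windows held at least 1. The search read both strands and also covered TGTTTAC, a FOXO motif, present in 3.17% of windows, and 4 forms of the E2F motif (TTTCCCGC, TTTCGCGC, TTTGCCGC and TTTGGCGC), present as a group in 1.86%. No match overlapped another. Of 10 windows before 7 of the genes, 1 before Ccnd3 held the FOXO motif and 0 held an E2F form. Ccnd1, Ccnd2 and Rb1 had no entry in the sequence table. A match is a stretch of letters and was not measured as a binding site.

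With OX40L-Tg APC, Cdkn1a was the only gene of the set to pass 2-fold, and it was higher. Cdkn2c, Cdkn2d and Cdk6 were higher by smaller amounts, Ccnd2 by less again, and Ccnd3 and Cdk4 were nearly level. Cdkn1b and Rb1 were slightly lower. Each difference is the log2 value with OX40L-Tg APC minus that with Wt APC, and a gene with several probe sets is represented by the set with the highest mean. All 10 genes reached the floor, the median intensity of an array, on at least 1 array, but Ccnd1 did so only on the array where it read higher and was below background on both. Of the other 9, 7 were higher and 2 lower, with a median difference of 0.25, which was 0.17 when a gene took the median of its probe sets. Cdk4 turned to -0.01 under that setting, leaving 6 higher and 3 lower. Over the 10541 genes above the floor 54.0% were higher and the median was 0.02. At 2-fold, 1 of 10 members was past the threshold, where 2.72% of all genes above the floor were, 1.56% higher and 1.17% lower. At 1.5-fold it was again 1 of 10, where 7.21% of all genes were, 3.85% higher and 3.36% lower. With 10 members, 1 gene is the smallest count above 0, so these shares give no result about the set as a group.

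Values near background were judged against 61 genes known mainly from other organs, such as liver and brain. Their 95th percentile was 33.8 units with Wt APC and 39.0 with OX40L-Tg APC, and a lower value is called below background. The list is not free of signal: Tg, the thyroglobulin gene, read 3302 and 4491 units, and without Tg and Krt10 the level was 24.2 and 30.9 units. The level of all 61 genes is used below unless another is named. By it 18 of the 25 probe sets were above background on both arrays, 6 on neither and 1 on the OX40L-Tg APC array alone. Of the 18, 15 were higher with OX40L-Tg APC and 3 were lower. Sets of a gene do not count separately: 6 of the 15 belong to Ccnd2. By gene 7 were higher and 2 lower, where 54.0% of all genes above the floor were higher. Disagreement between probe sets of a gene gives a measure of technical scatter on these arrays, though not of the spread between cultures. Over 2951 genes with at least 2 probe sets above background, the differences of a gene's probe sets spanned a median of 0.12 and a 95th percentile of 0.41.

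**Figure D1:**
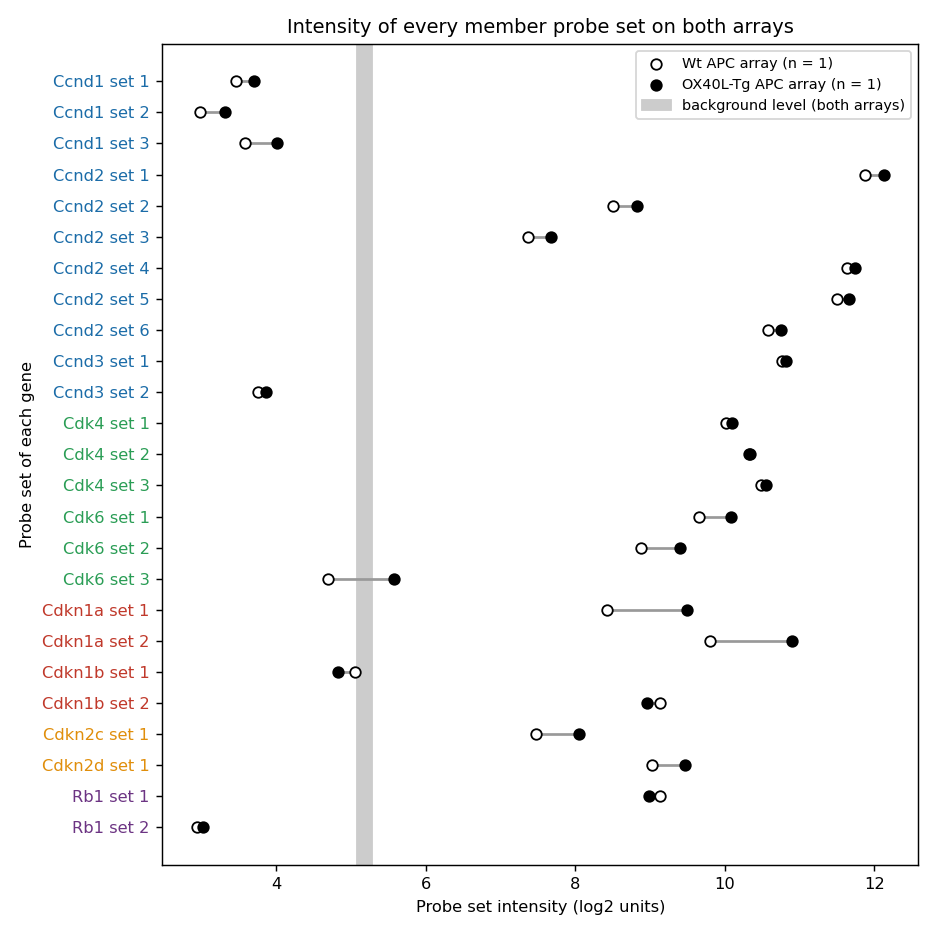
Intensity of each of the 25 probe sets on the log2 scale (horizontal axis), with the Wt APC array as open and the OX40L-Tg APC array as filled points, 1 array each; label colours follow the roles, and the grey band spans the background levels of both arrays. The widest gaps above background are those of Cdkn1a, and all 3 sets of Ccnd1 lie to the left of the band.

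Among the CIP/KIP inhibitors the genes went apart. Cdkn1a, which encodes p21, read 895 units with Wt APC against 1915 with OX40L-Tg APC and was 2.14-fold higher. Its other probe set read 343 and 719 units, 2.10-fold higher. The differences of 1.10 and 1.07 lay 0.03 apart, and 132 of the 10541 genes above the floor, or 1.25%, had a difference at least as high as that of Cdkn1a. Cdkn1b, which encodes p27, read 560.3 units with Wt APC against 497.7 with OX40L-Tg APC, a difference of -0.17. Its other set, at 33.0 and 28.4 units, was below background on both arrays. Without Tg and Krt10 in the background level, the Wt APC value of that set was above it. Of the genes above the floor, 19.5% were at least as low as Cdkn1b.

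Both INK4 genes of the set were higher with OX40L-Tg APC. Cdkn2c, for p18, read 178 and 266 units, a difference of 0.58 or 1.497-fold, just short of the 1.5-fold line. Cdkn2d, for p19, read 522 and 708 units, a difference of 0.44 or 1.36-fold. Each of these rests on 1 probe set, so no other set bears on it. Of the genes above the floor, 3.86% had a difference at least as high as that of Cdkn2c and 6.34% one at least as high as that of Cdkn2d. The remaining INK4 genes, Cdkn2a and Cdkn2b, were below background on both arrays, and Cdkn2b read 14.9 and 11.5 units. In all, 3 of the 4 inhibitors of the set read higher with OX40L-Tg APC, with Cdkn1b the exception.

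The partner kinases differed in the size of their differences. Cdk6 read 809 units with Wt APC against 1083 with OX40L-Tg APC and was 1.34-fold higher, and its next probe set read 469 and 676 units, 1.44-fold higher. A further set read 25.8 and 47.6 units, the first below background, and was at least 1.41-fold higher against the background level. Without Tg and Krt10 in that level, both of its values were above background. All 3 sets of Cdk6 therefore pointed the same way, and the 2 above background on both arrays lay at 0.42 and 0.53. Cdk4, whose product is the near relative of CDK6, read 1433 and 1507 units, a difference of 0.07. Its other sets differed by 0.09, from 1036 to 1099 units, and by -0.01, from 1292 to 1284 units. The lowest Cdk6 set above background thus lay above the highest Cdk4 set. The set that represents Cdk4 is marked as open to cross-hybridization in its name. Unshared here means a set with no added letter of any kind in its name, which for Cdk4 is the one at -0.01.

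The D cyclins were covered by 11 probe sets in all, of which 7 were above background on both arrays. Ccnd2, the cyclin D2 gene, had 6 probe sets, all above background and all higher with OX40L-Tg APC, by 0.10 to 0.33. The set with the highest mean read 3780 and 4491 units, 1.19-fold higher. At the low end, another set of the gene read 165 and 204 units with a difference of 0.31, so the direction was shared by bright and dim sets. Ccnd3, for cyclin D3, read 1743 and 1807 units, a difference of 0.05, and its other set was below background at 13.5 and 14.6 units. Ccnd1, for cyclin D1, which lymphocytes express little, was below background in all 3 sets. Its brightest set read 11.9 and 16.1 units, and the difference of 0.44 is between values that show no presence of the transcript.

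Rb1 encodes Rb, the protein that the cyclin D kinases phosphorylate. It read 559.9 units with Wt APC against 506 with OX40L-Tg APC, a difference of -0.14. Its other set read 7.63 and 8.09 units, below background, with a difference of 0.08, so 1 set carries the gene's value. Among genes above the floor 22.4% were at least as low as Rb1.

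**Figure D2:**
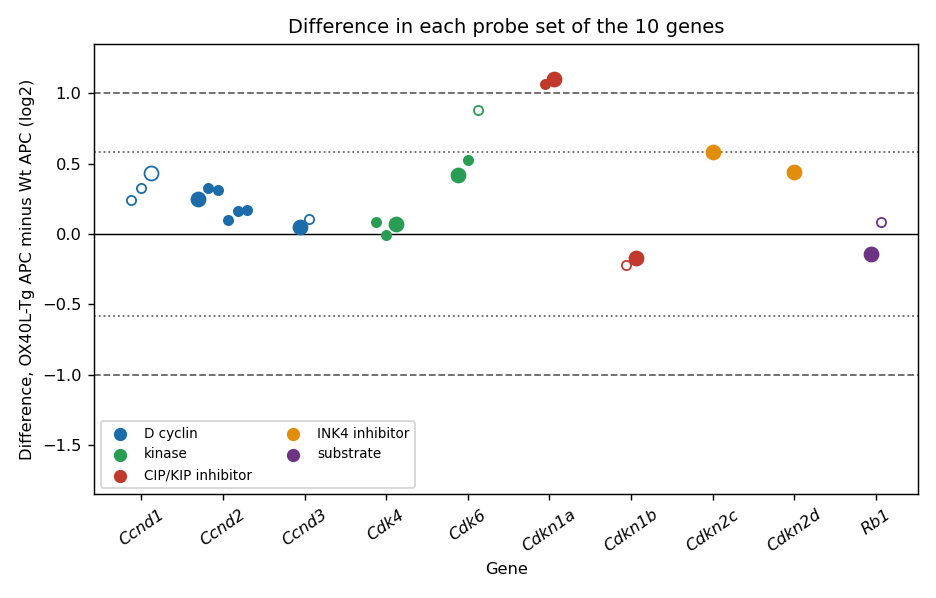
Difference between the arrays (OX40L-Tg APC minus Wt APC, log2) for every probe set, by gene; colours give the role, large points the set that represents the gene, filled points sets above background on both arrays and open points the others. Dashed lines mark 2-fold and dotted lines 1.5-fold; both sets of Cdkn1a lie above the dashed line, and Cdkn2c lies just under the dotted one.

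**Figure D3:**
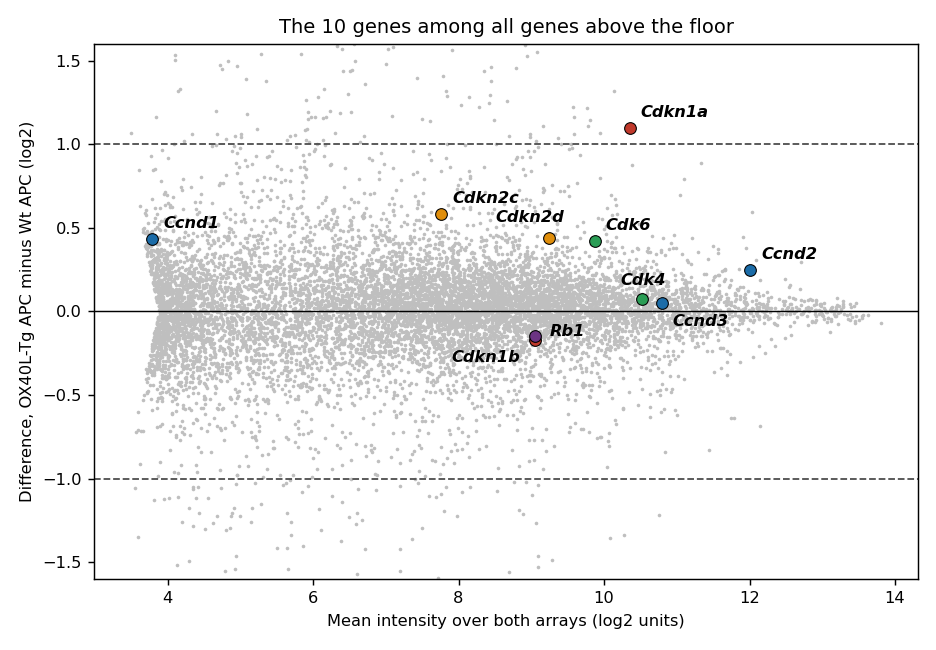
Difference (OX40L-Tg APC minus Wt APC, log2) against the mean intensity of both arrays (log2 units) for the 10541 genes above the floor in grey and the 10 genes in colour by role; 94 genes lie beyond the vertical axis at 1.6. Cdkn1a is the coloured gene above the dashed 2-fold line, and Ccnd1 sits at the dim end.

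Transcripts of the steps that follow the cyclin D kinases stood close together on the arrays. Of 8 genes of the cyclin E and CDK2 step above the floor, 6 were higher and 2 lower, with a median of 0.05. Over all genes above the floor the median was 0.02, 54.0% were higher and 7.21% were past 1.5-fold, 3.85% of them higher ones. Fbxw7, for the ubiquitin ligase subunit that targets cyclin E and Myc, read 161 and 243 units, 1.51-fold higher, and was the only one past 1.5-fold. That call rests on a shared probe set: the gene's unshared set above background differed by 0.43, and each of the 5 rescalings or probe set choices tried put Fbxw7 below 1.5-fold. Cdk2, the kinase that p21 and p27 restrain, read 641 and 644 units. Ccne1, for cyclin E1, differed by -0.11 and Cul1, for the ligase scaffold, by 0.09.

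Rb has relatives, the pocket proteins, and the E2F factors are what they hold. Of 12 genes for pocket proteins, E2F factors and their DP partners, 6 were higher and 6 lower, with a median of 0.02. Past 1.5-fold there were 0, where 7.21% of all genes above the floor were. E2f2, an activating E2F, read 407 and 292 units, a difference of -0.48 that its other set shared at -0.55. Rbl1, for p107, read 876 and 714 units, a difference of -0.30, whereas Rbl2, for p130, differed by 0.07. Tfdp2, for a DP partner, differed by -0.27, and E2f1 by 0.18 with another set at -0.10. All 3 genes of the CDK-activating kinase were lower, by a median of -0.08. Ccnh, its cyclin, read 2363 and 1807 units and differed by -0.39, while Mnat1 and the kinase gene Cdk7 differed by -0.08 and -0.04.

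Genes of DNA synthesis and mitosis did not pass 1.5-fold in either direction, where 7.21% of all genes above the floor did. Lower readings made up 46.0% of all genes above the floor. Of 19 S phase genes 6 were higher and 13 lower, with a median of -0.05. Orc1, of the origin recognition complex, differed by 0.29, Ccna2, for cyclin A2, by -0.15 and Tyms, for thymidylate synthase, by 0.14 with another set at -0.26. Of 14 mitosis genes 4 were higher and 10 lower, also with a median of -0.05. Ccnb2, for cyclin B2, differed by -0.23, Bub1, a spindle checkpoint kinase, by -0.19 and Mki67, the Ki-67 proliferation antigen, by -0.17. Of the members above background, Cdkn1a at 1.10, Cdkn2c at 0.58, Cdkn2d at 0.44 and Cdk6 at 0.42 therefore lay outside the range of both lists. So did genes of other lists, such as Fbxw7 at 0.60 and E2f2 at -0.48. Among 16 other cyclin and CDK genes above the floor 8 were higher and 8 lower, with a median of 0.04 and 0 past 1.5-fold. Ccng2, for a cyclin linked to arrest, differed by -0.39, Ccni by -0.36 and Cdk19 by -0.27.

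Cdkn1a is the textbook target of p53, and the other targets of p53 went in both directions. Of 20 above background on at least 1 array, 13 were higher and 7 lower, with a median of 0.09. Past 1.5-fold there were 3 higher and 3 lower, where 3.85% and 3.36% of all genes above the floor were, and with log2(value + 32) 1 higher and 2 lower. Plk2, a stress-induced kinase gene, read 56.3 and 154 units, 2.73-fold higher. Trp53inp1, for a p53-induced nuclear protein, read 834 and 347 units, 2.40-fold lower. Perp, a membrane protein gene, differed by -0.98, from 74.4 units to 37.8 units, the latter below background. Mdm2, for the ligase that degrades p53, read 529 and 651 units, a difference of 0.30. The rest past 1.5-fold were singled out after their values were seen. Sesn2 and Zmat3 differed by 0.86 and 0.63 and Sesn1 by -0.64, or by 0.56, 0.52 and -0.57 with log2(value + 32), below the 1.5-fold line. Tnfrsf10b, at 11.7 and 22.0 units, was below background on both arrays and is not counted. Within this list Plk2 thus lay on the side of Cdkn1a and Trp53inp1 on the other. Trp53 itself was not analysed here.

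Genes that regulate the set lay on both sides, and Klf2 had the largest difference among them. Of 13 above background on at least 1 array, 7 were higher and 6 lower, with a median of 0.03, and Klf2 alone was past 1.5-fold. Over all genes above the floor 54.0% were higher and 7.21% past 1.5-fold, so these counts give no result about the list. Klf2, for a factor of T cell quiescence known to activate Cdkn1a, read 358 and 65.0 units and was 5.51-fold lower. Cdkn1a was higher, and a link between these genes was not tested. Bcl6 was below background on both arrays at 28.8 and 15.3 units. Without Tg and Krt10 in the background level, its Wt APC value was above it. Stat5a, for a factor that acts downstream of IL-2 on Ccnd2, read 797 and 1173 units, a difference of 0.56 that its other set shared at 0.61, and it passed 1.5-fold by the median of its sets. Pim1 and Pim2, for kinases that phosphorylate p21 and p27 and singled out after their values were seen, differed by 0.38 and -0.48. Myc, whose product raises Ccnd2 and Cdk4, differed by -0.12, and Foxo3, for an activator of Cdkn1b, by 0.03. Foxo1 was below background at 10.2 and 9.71 units.

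**Figure D4:**
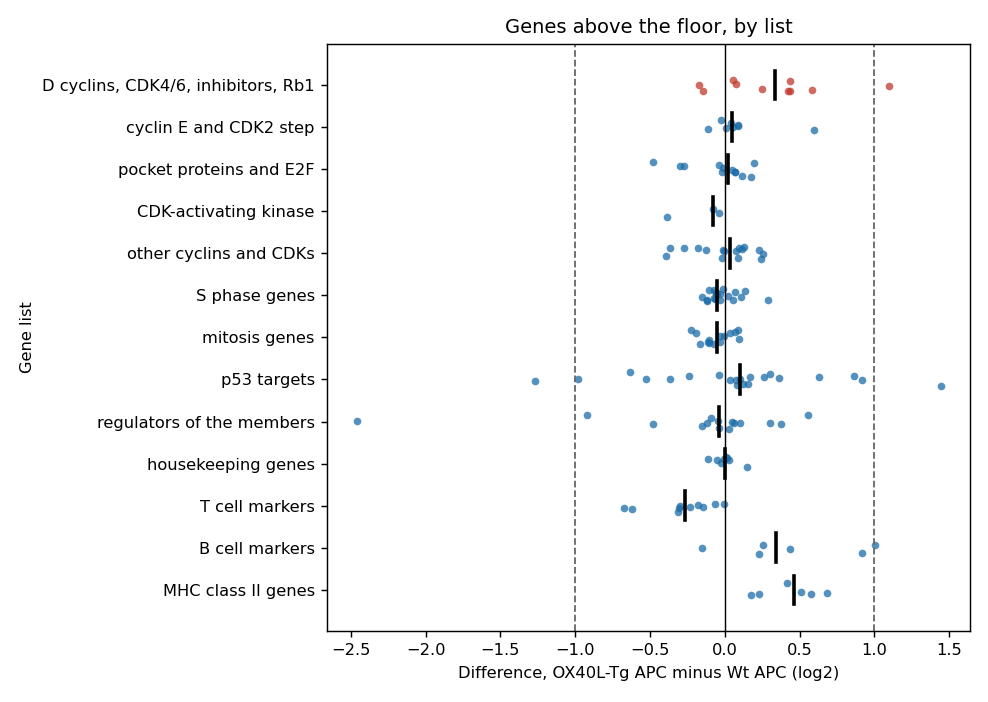
Difference (OX40L-Tg APC minus Wt APC, log2) of each gene above the floor, by gene list; points are genes, black bars list medians and dashed lines 2-fold. The S phase and mitosis genes lie close to 0, whereas the p53 targets and the 10 genes of the set, in red, spread further.

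Markers of the cells in the cultures differed as well, and their part in the differences above was not tested. In bulk RNA fewer cells of a type and less RNA per cell cannot be told apart. All 10 T cell markers with a value were above background and lower with OX40L-Tg APC, with a median of -0.27 and a summed intensity of 18851 units against 15349. Cd3d, a chain of the T cell receptor complex, read 4161 and 3375 units, and Cd3e and Cd3g differed by -0.67 and -0.62. All 6 genes of MHC class II read higher, with a median of 0.46, with sums of 2688 and 3596 units and Cd74, the invariant chain, at 901 and 1346 units. Of 9 B cell markers with a value, 6 were above background and summed intensity was 974 and 1487 units, with Pax5, Cr2 and Fcrla below it on both arrays. Of those 6, 5 were higher and 1 lower, with a median of 0.35. Fcer2a, for CD23, differed by 1.00, Cd79b, of the B cell receptor, by 0.92, and Blk, a B cell kinase gene, by -0.15. Cd8b1 read 191 and 239 units while Cd8a was below background. All 8 macrophage and monocyte markers, all 7 granulocyte markers and all 4 adipocyte markers with a value were below background, the last although the extraction protocol names adipose tissue. Of 5 dendritic cell markers only Flt3 was above background, at 46.1 and 43.3 units. The 5 NK cell markers summed to 294 and 139 units, with Ncr1, Klrb1c and Klra8 below background. The fall in the sum was that of Eomes, which T cells also express, at 221 and 65.1 units. Tyrobp, just above background, was slightly higher at 36.6 and 40.1 units. The 5 erythroid markers summed to 1222 and 260.0 units, nearly all of it from Hba-a1 at 1161 and 207 units. The 8 housekeeping genes with a value had a median difference of 0.00, with Gusb at 0.15, Sdha at -0.11 and Gapdh at -0.05 the furthest from 0.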

How the data were processed

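RNA of sorted CD4 T cells was measured on 2 Affymetrix HT_MG-430 PM arrays, 1 for each kind of APC. The authors deposited linear probe set intensities from RMA, as the submitters' processing notes name it, with the version not given in the sources used here. RMA corrects background and equalises the arrays, so a change in total RNA per cell leaves no trace, and it compresses low values. Here log2 of the intensities was taken. Of 45141 probe sets, 28898 were paired with 1 gene symbol, 551 with several and 15692 were not listed in the annotation and are unnamed here. Entrez numbers of 28689 were found in RefSeq and changed 0 symbols. A gene took its probe set with the highest mean, and the floor was 3.88 on the log2 scale on both arrays. Across all probe sets the correlation of the arrays was r = 0.993.

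Called means past 2-fold or 1.5-fold, and no test was possible. Members and gene lists were chosen with earlier results of these data known. Named were all members, the 3 genes of each pathway list with the largest difference, a fixed set of regulators and the brightest marker of a cell type where above background, with a few further markers picked after their values were seen, while genes of most similar pattern were not sought, since 2 arrays give 1 difference. Python 3.11.15, numpy 2.4.6, pandas 2.3.3, statsmodels 0.14.6 and matplotlib 3.10.9 were used. The counting steps were tested on simulated data, which gives no rate of error for these arrays. Alternatives were the median of a gene's probe sets, an unshared probe set where a gene has one, median centring, lowess with a span of 0.3, a pseudocount of 32 and other floors.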

Additional observations from a re-analysis of the deposited data

How the results depend on the processing

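The 10 differences were recomputed under the 5 alternatives that can change them, 50 values in all, of which 39 differ from the reported value. A gene with 1 probe set cannot change with the choice of sets. The preference for unshared sets changed Cdk4 alone, since the other members were already represented by such a set. Of the 50, 48 moved by less than 0.13, the SD between probe sets of a gene. The other 2 are those of Ccnd1, at 0.24 by the median of its probe sets and 0.13 with log2(value + 32). The sign was kept in 48, and the exceptions are Cdk4 at -0.01 with unshared probe sets and again by the median of its sets. Cdkn1a stayed between 1.07 and 1.10 and was the only gene past 2-fold under each alternative. With Ccnd1 counted, the median of the 10 genes was 0.33, and 0.19 with log2(value + 32). By the median of probe sets Ccnd1 missed the floor, and the other 9 genes had a median of 0.17. Leaving out Ccnd1 under the other settings was chosen after seeing the data. Over all genes, 287 past 2-fold became 148 with log2(value + 32) and 760 at 1.5-fold. The pathway lists held 1 to 21 genes above the floor each. Of these genes, 3 past 2-fold became 10 at 1.5-fold, where 2.72% and 7.21% of all genes above the floor were. Those 10 include Bcl6 and Tnfrsf10b, below background on both arrays. They became 8 with the floor at background level and 4 with log2(value + 32). The background level on the Wt APC array was 22.7 units at the 90th percentile and 24.2 units without Tg and Krt10, both chosen after seeing the data. Median centring shifted all differences by 0.03. No paired analysis was possible because each group has 1 array, and for the same reason no replicate could be left out. RMA intensities near background limit Ccnd1 and the second probe sets of Ccnd3, Cdkn1b and Rb1.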
